A study of Homo sapiens
Mus musculus and Homo sapiens with 12 samples.

Results

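The members are 4 human genes of the plasminogen activation system, PLAU, PLAT, PLAUR and SERPINB2, taken by name out of 8775 human genes that at least 1 library covers, with PLAT counted by 1 of its transcripts. PLAU encodes urokinase, the plasminogen activator that works at the cell surface, and PLAT encodes tissue plasminogen activator, which acts mainly on fibrin. PLAUR encodes the urokinase receptor, a membrane protein held by a glycolipid anchor, and SERPINB2 encodes plasminogen activator inhibitor type 2, a serine protease inhibitor of clade B that stays largely inside the cell. The activators cut plasminogen into plasmin, a protease that dissolves fibrin, degrades matrix and releases growth factors. The receptor holds urokinase at the cell surface. Cultured fibroblasts are known to make both activators and the receptor, with levels that respond to serum, cytokines and cell contact.

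PolyA RNA was sequenced from fused and unfused cells, and its human transcripts are described here. Heterokaryons, cells with separate nuclei made by fusing D3 mouse embryonic stem cells with MRC5 human lung fibroblasts, were collected on day 1, day 2 and day 3 and sorted by flow cytometry, with 2 libraries a day. The other groups were a homokaryon of fibroblasts fused with fibroblasts (1 library), a co-culture of the same stem cells and fibroblasts that were not fused and were harvested together (2 libraries), and unfused fibroblasts (3 libraries, of which 1 holds no human transcript and was not used). The time course was made to follow reprogramming of the fibroblast genome, and the labels do not give the age of the controls after plating or say whether replicates were separate cultures, so p-values reflect only how far these samples spread, which may be technical.

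Levels are RPKM, read density per transcript length and library, as inferred from the values, and the depth of the libraries is unknown. Heterokaryon and co-culture libraries were made from mouse as well as human cells. Whether mouse reads were counted on human transcripts, or entered the library total behind each level, was not tested. Differences between these libraries and those of fibroblasts alone carry that limit. Differences between heterokaryons and co-culture carry it too, since the share of mouse RNA in each is not known here. Each deposited table breaks off at its own point in accession order, so a transcript missing before that point was taken as 0 and one after it as not covered. The tables used print no value of 0, and every RPKM of 0 below is a transcript that was not listed. The table of unfused fibroblast replicate 1 is mostly not human: 5336 of its 17527 entries carry human accessions, against 10115 or more in each other table used, and its human values were told from the rest by their number of decimals. In that human part it breaks off before the only listed PLAU transcript and before 1 transcript each of PLAUR and SERPINB2. For these genes the fibroblast level rests on replicate 2. PLAT is given by its transcript NM_000930, since its other coding transcript lies past the end of every table; whether the split of PLAT reads between the 2 transcripts differed between libraries was not tested. Replicates correlated across genes at 0.836 to 0.923 (Pearson r of log2 values, genes not being independent replicates). The summed level of 8 fibroblast markers covered in all 10 libraries compared (8 of 16 on the list, among them COL1A1, COL1A2 and VIM) was 7054 to 7753 RPKM on day 1, 4687 to 5256 on day 2, 6784 to 6923 on day 3, 16019 in the homokaryon library, 6959 to 7043 in co-culture and 7660 in unfused fibroblast replicate 2. In mixed or bulk libraries, fewer cells making a transcript and less transcript per cell cannot be told apart.

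The transcripts behind PLAU and PLAUR are shown by the coding segments that set them apart, because the sums below rest on them. The segments were read from GENCODE release 29 transcripts on build GRCh38, 5′ to 3′ along the coding strand, and capitals mark the bases of the named segment. PLAU lies on chromosome 10, plus strand. All of its signal stood in NM_002658, which starts at chr10:73911556-73911612, and NM_001145031, which starts at chr10:73911892-73911925, was listed in no library that covers it. The 2 start segments follow, the second with the first bases of the next shared segment in lower case.
PLAU NM_002658 first coding segment: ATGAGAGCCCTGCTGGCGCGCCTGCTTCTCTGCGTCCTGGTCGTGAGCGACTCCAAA
PLAU NM_001145031 first coding segment: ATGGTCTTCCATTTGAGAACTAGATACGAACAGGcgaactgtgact

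PLAUR lies on chromosome 19, minus strand, and has 3 coding transcripts in these tables. NM_002659 codes for the full receptor and NM_001005377 lacks an in-frame segment at chr19:43655439-43655573. Both end in the segment at chr19:43648893-43649143, which codes for the signal that is exchanged for the membrane anchor. NM_001005376 ends instead in the segment at chr19:43646460-43646548 and lacks that signal. Their coding lengths without the stop codon are 1005 bases for NM_002659, 870 for NM_001005377 and 843 for NM_001005376. The lower case bases belong to the neighbouring segments.
PLAUR exon skipped by NM_001005377: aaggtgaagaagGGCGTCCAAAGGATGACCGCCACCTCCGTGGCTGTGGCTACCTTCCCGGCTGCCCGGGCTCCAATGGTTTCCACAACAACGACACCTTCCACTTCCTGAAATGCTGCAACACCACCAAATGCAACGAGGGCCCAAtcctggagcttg
PLAUR last coding segment of NM_001005376: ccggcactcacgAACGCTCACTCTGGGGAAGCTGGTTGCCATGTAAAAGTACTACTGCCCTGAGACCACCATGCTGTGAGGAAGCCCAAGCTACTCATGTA
PLAUR last coding segment of NM_002659 and NM_001005377: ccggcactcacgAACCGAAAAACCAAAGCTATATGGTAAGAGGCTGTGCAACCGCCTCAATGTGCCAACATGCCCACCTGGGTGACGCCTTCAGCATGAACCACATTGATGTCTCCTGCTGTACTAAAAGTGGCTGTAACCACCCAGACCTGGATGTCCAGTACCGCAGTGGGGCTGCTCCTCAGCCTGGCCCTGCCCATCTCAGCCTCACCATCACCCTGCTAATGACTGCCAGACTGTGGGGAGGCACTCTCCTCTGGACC

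Against co-culture, both activators and the receptor were lower in heterokaryons on day 1 and day 2, and PLAT was lower on day 3 as well. SERPINB2 had lower values on each day without passing the test. On day 1, 2 of the 3 members covered in full (PLAU and PLAUR) passed the test as lower, where 4.44 percent of 3604 genes tested did and 10.5 percent passed in either direction. On day 2 the same count held against 3.48 percent of 2470 genes lower and 10.1 percent in either direction, and on day 3 none of the 3 passed, against 1.15 percent of 3034 genes lower and 3.43 percent in either direction. PLAT was tested in the fit that also takes genes covered in part, where 2.39 percent of 6325 genes were called lower on day 1, 1.2 percent of 5403 on day 2 and 0.357 percent of 5888 on day 3. All 4 members passed the filter on low values. The 3 days share the co-culture libraries, so their differences are not independent of each other. On day 2 the median gene tested stood 0.29 above co-culture on the log2 scale in the deposited values, 0.10 above it with upper quartiles made equal and 0.01 above it with quantile normalization; no difference of a member from co-culture changed sign under these scalings.

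**Figure D1:**
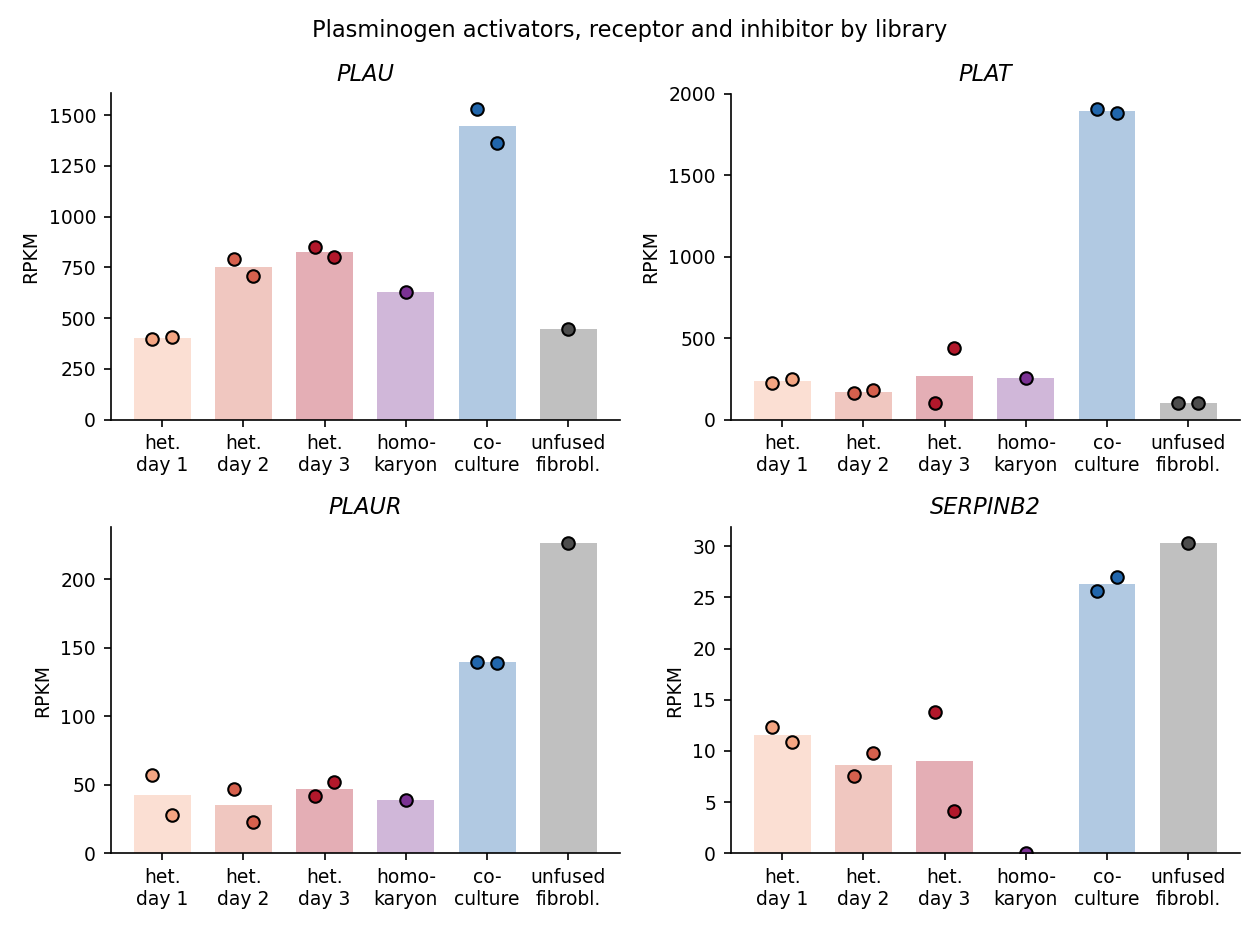
Level in RPKM (linear axis from 0) of each member by group, with points for libraries and bars for group means. Co-culture is the highest group for PLAU and PLAT, and unfused fibroblasts are the highest for PLAUR and SERPINB2. The homokaryon and, for all genes but PLAT, the unfused fibroblasts are 1 library each.

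PLAU, the urokinase gene, stood at 399 and 408 RPKM on day 1, 792 and 709 on day 2, and 852 and 801 on day 3, against 1530 and 1360 in co-culture. It stood at 629 in the homokaryon library and 447 in unfused fibroblast replicate 2. Every heterokaryon library lay below both co-culture libraries, and the 3 days did not overlap. The day 1 libraries were the lowest of all and nearest to the unfused fibroblasts.

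The means of PLAU were 403 ± 6.43 RPKM on day 1, 751 ± 59.2 on day 2 and 826 ± 36.2 on day 3, against 1445 ± 119.9 in co-culture (SD, n = 2 each). The log2 difference from co-culture was -1.84 on day 1 (SE 0.18, limma adjusted p = 0.00273), a 3.57-fold lower level. It was -0.94 on day 2 (SE 0.19, limma adjusted p = 0.0231) and -0.80 on day 3 (SE 0.19, limma adjusted p = 0.0636, not called). The day 1 call held under every alternative of that fit, leaving out each library included (adjusted p up to 0.0449). The day 2 call was lost when any 1 of the 4 libraries was left out (adjusted p 0.114 to 0.161) and without the mean-variance trend (adjusted p = 0.113).

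Within the heterokaryons, PLAU was 0.89 higher on the log2 scale on day 2 than on day 1 (SE 0.19, limma adjusted p = 0.082) and 1.03 higher on day 3 than on day 1 (SE 0.19, limma adjusted p = 0.0510). Neither passed the threshold, although the libraries of the days did not overlap; in these comparisons 0.283 and 1.15 percent of all genes tested were called. Quantile normalization and a stricter filter on low values brought the difference of day 3 and day 1 past the threshold (adjusted p = 0.0334 and 0.0416). Day 3 and day 2 differed by 0.14 (SE 0.18, limma adjusted p = 0.864); between these days limma called 0 of 2470 genes, 0.0 percent, with 197 at an unadjusted p under 0.05, and 9 with no filter on low values. For PLAT, PLAUR and SERPINB2 no difference between days passed (limma adjusted p 0.647 to 0.964). PLAT passed without 1 day 3 library, at 1.36 against day 2 without replicate 1 (adjusted p = 0.0315) and at -1.25 against day 1 without replicate 2 (adjusted p = 0.0313).

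PLAT, the tissue plasminogen activator gene on chromosome 8, was 226 and 249 RPKM on day 1, 161 and 181 on day 2, and 99.3 and 441 on day 3, against 1907 and 1881 in co-culture. It was 254 in the homokaryon library and 101 in both unfused fibroblast libraries. The co-culture libraries lay far above all others, and the unfused fibroblasts were among the lowest. The day 3 replicates spanned the whole range of the other heterokaryons and lay on both sides of it.

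The log2 difference of PLAT from co-culture was -2.99 on day 1 (SE 0.56, limma adjusted p = 0.0265), -3.46 on day 2 (SE 0.57, limma adjusted p = 0.0215) and -3.17 on day 3 (SE 0.56, limma adjusted p = 0.0433). The level was 7.94-fold lower on day 1 and 11.0-fold lower on day 2. The sizes on day 1 and day 2 moved little when a library was left out, from -3.06 to -2.92 and from -3.54 to -3.38, but no such fit passed the threshold (adjusted p from 0.0755 to 0.149 and from 0.119 to 0.129). On day 3 the difference was -2.10 without heterokaryon replicate 1 (adjusted p = 0.0105) and -4.24 without replicate 2 (adjusted p = 0.000657), so its size turns on which day 3 library is used. Day 3 lost its call without either co-culture library (adjusted p = 0.218 and 0.220), and it also missed the threshold with the replicate block (0.0534), without the trend (0.0756), with a pseudocount of 0.1 (0.0513), with upper quartile scaling (0.0516) and in the fit of the 2 groups alone (0.162).

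PLAUR, the urokinase receptor gene, summed to 57.1 and 27.6 RPKM on day 1, 46.7 and 23.1 on day 2, and 41.8 and 51.6 on day 3, against 140.0 and 139 in co-culture. It summed to 38.7 in the homokaryon library and 227 in unfused fibroblast replicate 2. All heterokaryon libraries and the homokaryon lay below co-culture, and the days overlapped with each other. The replicates of day 1 and of day 2 differed by more than the means of the days did. The full receptor transcript was listed in every heterokaryon library but in neither co-culture library. How reads were divided among the transcripts was not tested, so these sums may not compare across groups. The form without the anchor signal, taken alone, was 8.73 to 27.9 RPKM in heterokaryons, against 75.4 and 66.9 in co-culture.

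The log2 difference of PLAUR from co-culture was -1.78 on day 1 (SE 0.43, limma adjusted p = 0.0399), -2.05 on day 2 (SE 0.44, limma adjusted p = 0.0286) and -1.57 on day 3 (SE 0.44, limma adjusted p = 0.101, not called). The day 1 call was lost under quantile normalization (-1.58, adjusted p = 0.0615), with no filter (0.0992), without the trend (0.0738), in the fit of the 2 groups alone (0.0612), in the fit that admits partly covered genes (0.0644) and without co-culture replicate 1 (0.194), co-culture replicate 2 (0.201) or heterokaryon replicate 2 (-1.27, 0.113). The day 2 call was lost with no filter (0.0677), with partly covered genes (0.0623) and in each fit that left out 1 library (0.0608 to 0.169).

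SERPINB2, the inhibitor gene on chromosome 18, was the least abundant member. Its 2 coding transcripts summed to 12.3 and 10.9 RPKM on day 1, 7.52 and 9.80 on day 2, and 13.8 and 4.11 on day 3, against 25.7 and 26.9 in co-culture. They were not listed in the homokaryon library and summed to 30.4 in unfused fibroblast replicate 2. In that fibroblast library and in day 3 replicate 2, NM_001143818 was not listed and NM_002575 held the whole sum. Both transcripts were listed in every other heterokaryon library and in co-culture. How reads were divided between the 2 transcripts was not tested, so these sums may not compare across libraries. Every heterokaryon library lay below both co-culture libraries, and the days overlapped. The log2 difference was -1.12 on day 1 (SE 0.53, limma adjusted p = 0.224), -1.51 on day 2 (SE 0.53, limma adjusted p = 0.116) and -1.65 on day 3 (SE 0.53, limma adjusted p = 0.146). A call appeared on day 2 in the fit of the 2 groups alone (adjusted p = 0.0247). Without heterokaryon replicate 1 the day 3 difference was -2.42, which rests on the day 3 library where NM_001143818 was not listed.

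**Figure D2:**
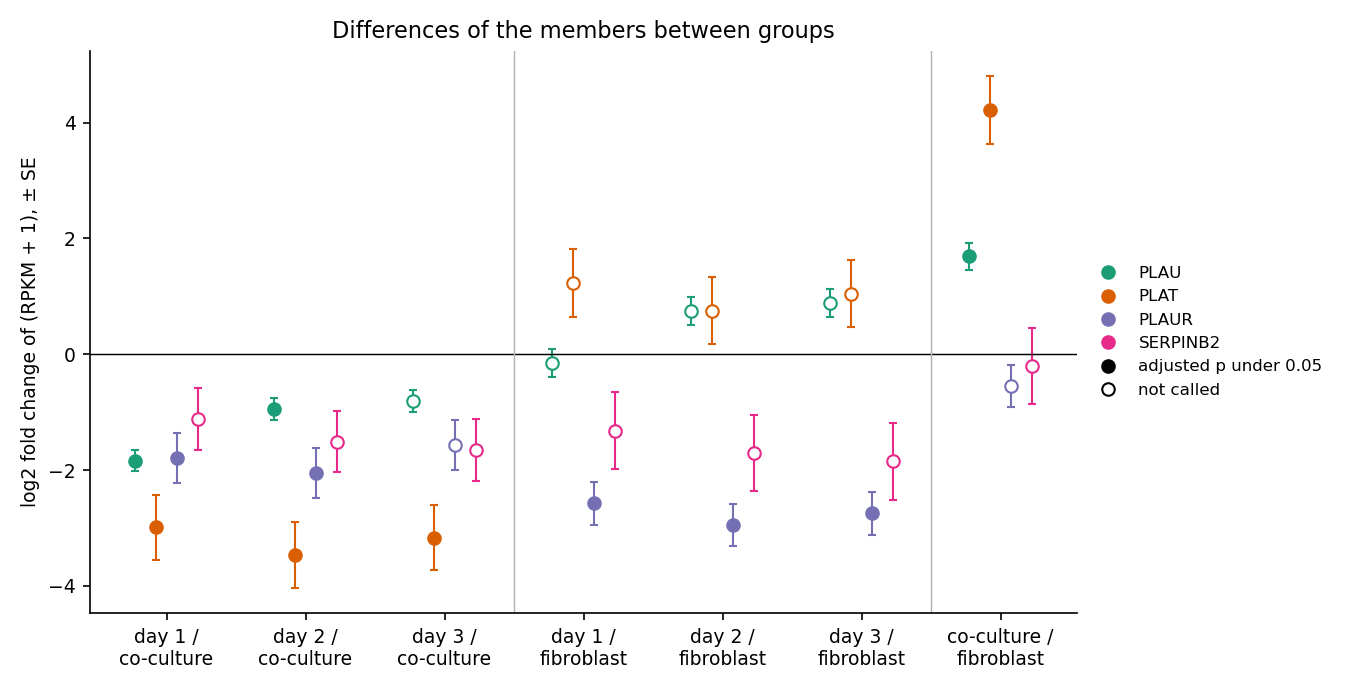
Log2 fold change of RPKM + 1 (vertical axis, with SE) of the members, each comparison named as group over its comparator; filled points passed an adjusted p of 0.05. PLAT moves most, from -3.46 on day 2 against co-culture to 4.22 for co-culture against unfused fibroblasts. PLAU and SERPINB2 against fibroblasts use 1 fibroblast library, and PLAUR there uses the 2 transcripts covered in both.

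Both activators were higher in co-culture than in unfused fibroblasts. PLAT was higher in co-culture than in unfused fibroblasts by 4.22 on the log2 scale (SE 0.58, limma adjusted p = 0.0261), an 18.6-fold difference, in a fit where 0.457 percent of 3063 genes were called higher. PLAU was higher in co-culture by 1.69 (SE 0.24, limma adjusted p = 0.0266), a 3.22-fold difference against the single fibroblast library that covers it, where 0.373 percent of 2680 genes were called higher. That fit takes the lone fibroblast library to vary like the other groups. Leaving out 1 library ended both calls (PLAT adjusted p 0.128 to 0.185, PLAU 0.248 to 0.285), as did the replicate block (0.0558 and 0.0770) and, for PLAU, dropping the trend (0.364).

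Between the same groups the receptor and the inhibitor did not pass the test. PLAUR summed over its 2 transcripts covered in both fibroblast libraries was 140.0 and 139 RPKM in co-culture and 185 and 227 in unfused fibroblasts, a log2 difference of -0.55 (SE 0.37, limma adjusted p = 0.694). SERPINB2 differed by -0.20 from fibroblast replicate 2 (SE 0.66, limma adjusted p = 1).

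Set against unfused fibroblasts, the receptor was lower in heterokaryons, and the activators were not called in either direction. The 2 PLAUR transcripts covered in both fibroblast libraries summed to 43.2 and 26.0 RPKM on day 1, 33.5 and 19.6 on day 2, and 29.3 and 29.9 on day 3, against 185 and 227 in unfused fibroblasts. All heterokaryon libraries lay far below both fibroblast libraries. The log2 difference was -2.58 on day 1 (SE 0.37, limma adjusted p = 0.00972), -2.95 on day 2 (SE 0.37, limma adjusted p = 0.00636) and -2.75 on day 3 (SE 0.37, limma adjusted p = 0.0133). In that fit 3.53 percent of genes on day 1, 1.57 percent on day 2 and 1.04 percent on day 3 were called lower. The sum leaves out NM_002659, which carried 1.66 to 21.7 RPKM in heterokaryons and was not listed in fibroblast replicate 2. With all 3 transcripts and replicate 2 as the only fibroblast library the difference was -2.48 (adjusted p = 0.0419), -2.75 (adjusted p = 0.0303) and -2.26 (adjusted p = 0.0967), where 1.42, 0.853 and 0.225 percent of genes were called lower. The calls of day 1 and day 2 with all 3 transcripts were lost with no filter and without the trend (adjusted p 0.0808 to 0.0996), without heterokaryon replicate 2 on day 1 (0.0974), without either heterokaryon library on day 2 (0.0658 and 0.181) and with a pseudocount of 0.1 on day 1 (0.0582). The 2-transcript calls were lost without either fibroblast library (adjusted p 0.0681 to 0.116), where the differences ran from -3.10 to -2.43.

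PLAU differed from unfused fibroblast replicate 2 by -0.15 on day 1 (limma adjusted p = 0.804), 0.74 on day 2 (limma adjusted p = 0.143) and 0.88 on day 3 (limma adjusted p = 0.138), with an SE of 0.24 each. PLAT differed from both fibroblast libraries by 1.23 (limma adjusted p = 0.255), 0.75 (limma adjusted p = 0.519) and 1.05 (limma adjusted p = 0.425), with an SE of 0.58 each. In the fit of the 2 groups alone PLAT passed on day 1 and day 2 (adjusted p = 0.0210 and 0.0277), and without heterokaryon replicate 1 on day 3 (2.12, adjusted p = 0.00620). SERPINB2 differed from fibroblast replicate 2 by -1.85 to -1.32 on the 3 days without passing, and by -2.62 on day 3 without heterokaryon replicate 1. The SERPINB2 transcript NM_001143818 was not listed in fibroblast replicate 2 or in day 3 replicate 2, on which the -2.62 rests. The median gene tested stood 0.37 above unfused fibroblasts on day 2 and 0.18 above on day 3 in the deposited values, 0.08 and 0.03 above with upper quartiles made equal, and at -0.05 and -0.12 with quantile normalization.

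Ordered by level, PLAU ran from co-culture over day 3, day 2, the homokaryon library and unfused fibroblasts to day 1, where day 3 and day 2 did not differ beyond their spread and unfused fibroblasts and day 1 did not pass the test. PLAT ran from co-culture over day 3, the homokaryon library, day 1 and day 2 to unfused fibroblasts, and no neighbours below co-culture passed the test or could be tested. PLAUR ran from unfused fibroblasts over co-culture, day 3, day 1 and the homokaryon library to day 2, with no difference between the days past the threshold. SERPINB2 ran from unfused fibroblasts over co-culture, day 1, day 3 and day 2 to the homokaryon library.

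The homokaryon library shows fused fibroblasts without a stem cell partner, and as it is a single library no test was made. PLAU was 1.41 times and PLAT 2.51 times the unfused fibroblast level there. PLAUR was 5.86-fold lower and SERPINB2 was not listed. Between the homokaryon and fibroblast replicate 2, 35.4 percent of 2296 genes differed by 1 or more on the log2 scale, against which these values are read. The PLAUR level of 38.7 RPKM lay inside the range of the heterokaryons, 23.1 to 57.1. SERPINB2 was listed in every heterokaryon library, at 4.11 to 13.8.

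The split of PLAUR values among its transcripts also differed by library. NM_001005376, the form without the anchor signal, held 48.9 and 87.4 percent of PLAUR on day 1, 40.7 and 68.0 percent on day 2, and 37.5 and 16.9 percent on day 3, against 53.8 and 48.1 percent in co-culture. It held 58.5 percent in the homokaryon library and 47.0 percent in unfused fibroblast replicate 2. Co-culture and unfused fibroblasts lay close together, and the heterokaryon replicates spread over most of the scale.

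NM_002659, the full receptor, was not listed in either of the co-culture libraries or in unfused fibroblast replicate 2, where NM_001005377 carried 64.6, 72.3 and 120 RPKM. In heterokaryons NM_002659 stood at 13.9 and 1.66 RPKM on day 1, 13.2 and 3.52 on day 2, and 12.4 and 21.7 on day 3, and it stood at 7.65 in the homokaryon library. Its ratio to NM_001005377 was 0.910 in the homokaryon library and in 5 of 6 heterokaryon libraries, and 1.03 in day 3 replicate 2. The pair thus kept 1 ratio in libraries of different PLAUR level, and how the authors' counting divided reads among these transcripts was not tested. Neither the values of the full receptor transcript nor its absence from co-culture and fibroblast libraries is therefore read as its level. The sum of the pair relative to NM_001005376 ran from 0.144 to 4.91 in heterokaryons, and was 0.857 and 1.08 in co-culture.

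**Figure D3:**
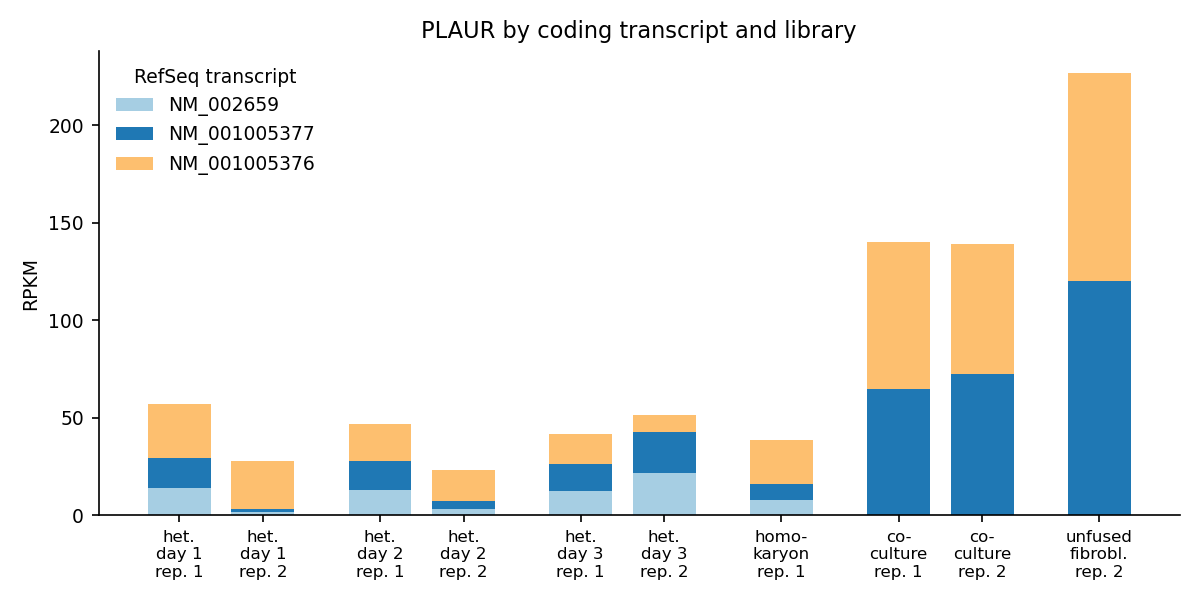
Level of PLAUR in RPKM by library, stacked by RefSeq transcript. The co-culture and fibroblast bars hold NM_001005377 and NM_001005376, and the heterokaryon and homokaryon bars also hold NM_002659 at 1.66 to 21.7 RPKM.

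The balance among the members was described by ratios within a library. The ratio of PLAU to PLAT was 1.76 and 1.64 on day 1, 4.91 and 3.92 on day 2, and 8.58 and 1.82 on day 3, against 0.802 and 0.723 in co-culture. The homokaryon library had a ratio of 2.48 and unfused fibroblast replicate 2 a ratio of 4.43. Of the groups given, only co-culture had more of the 1 covered PLAT transcript than of PLAU, and day 3 held the widest pair. The other PLAT transcript is not covered, so the ratio for the whole gene may be lower in any group. The ratio of PLAU to PLAUR, urokinase to its receptor, was 6.98 and 14.8 on day 1, 17.0 and 30.7 on day 2, and 20.4 and 15.5 on day 3, against 10.9 and 9.78 in co-culture. It was 16.2 in the homokaryon library and 1.97 in unfused fibroblast replicate 2. Day 2 and day 3 lay above co-culture, day 1 lay on both sides of it, and unfused fibroblasts were the lowest. These ratios were not tested.

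**Figure D4:**
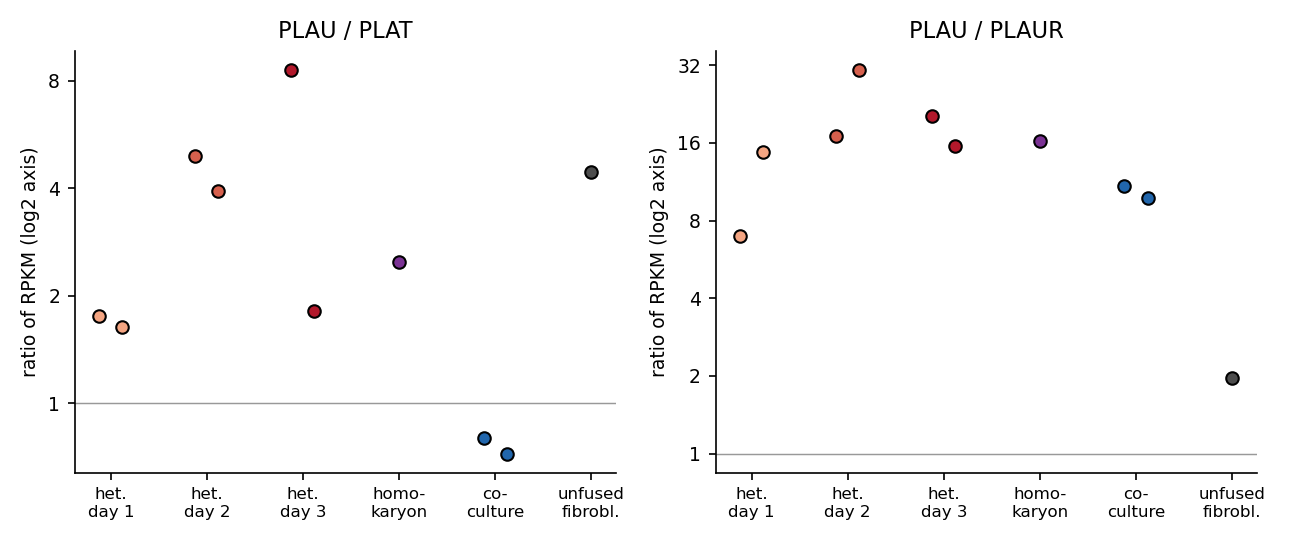
Ratio of RPKM values on a log2 axis, PLAU over PLAT on the left and PLAU over PLAUR on the right, with 1 point per library. With PLAT counted by 1 of its transcripts, PLAU over PLAT lies under 1 in co-culture alone. PLAU over PLAUR runs from 1.97 in unfused fibroblasts to 30.7 in a day 2 library.

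Of 36 genes of the plasminogen system, 14 could be tested on day 1 against co-culture, and 4 were lower and 0 higher. Of all genes tested against co-culture, 4.44 percent were called lower and 6.1 percent higher on day 1. The shares were 3.48 and 6.6 percent on day 2, and 1.15 and 2.27 percent on day 3. Apart from PLAU and PLAUR, the genes of the list called lower on day 1 were A2M, the broad protease trap alpha-2-macroglobulin (-2.46, SE 0.51, limma adjusted p = 0.0203), and F3, the coagulation starter tissue factor (-2.89, SE 0.55, limma adjusted p = 0.0189). A2M stood at 1.74 and 4.77 RPKM on day 1, against 18.0 and 24.0 in co-culture and 6.05 and 5.21 in unfused fibroblasts. F3 stood at 25.5 and 65.3 on day 1, against 338 and 283 in co-culture and 205 in unfused fibroblast replicate 2. The day 1 call of A2M was lost in the fit of the 2 groups alone (adjusted p = 0.0695) and without either co-culture library or heterokaryon replicate 1 (0.0509 to 0.158), and that of F3 with no filter (0.0698) and without the same libraries (0.0652 to 0.141). The median of the list was -0.34, against 0.00 for all genes tested. On day 2, 12 were tested and 3 were lower (PLAU, PLAUR and A2M), with a median of -0.23 against 0.29; A2M lost this call without any 1 library (adjusted p 0.0842 to 0.126). On day 3, 14 were tested and 0 called, with a median of -0.20 against 0.07. In the fit that admits partly covered genes, 20 were tested on each day, with 4 lower on day 1 (PLAU, PLAT, A2M and F3) and 4 lower on day 2 (PLAU, PLAT, SERPINE2 and A2M). In that fit 2.39 percent of all genes tested were called lower on day 1, 1.2 percent on day 2 and 0.357 percent on day 3. On day 3, PLAT was lower and SERPINE2, protease nexin 1, which also inhibits urokinase, was higher there. SERPINE2 was summed over part of its transcripts and stood at -4.04 on day 2 and 2.28 on day 3, and the split of its reads among transcripts was not tested.

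S100A10, which with ANXA2 forms a receptor for plasminogen at the cell surface, had higher values on day 1 and day 2 than in co-culture without passing the test in the fit of all groups. It was 1066 and 573 RPKM on day 1, 566 and 563 on day 2, and 543 and 120 on day 3, against 190 and 176 in co-culture. Its log2 difference was 2.09 on day 1 (SE 0.62, limma adjusted p = 0.0720) and 1.62 on day 2 (SE 0.63, limma adjusted p = 0.153). It passed in the fit of the 2 groups alone on day 1 and day 2 (adjusted p = 0.0372 and 0.00308) and with the replicate block on day 1 (0.0435). On day 3 it was 0.48, and -0.61 without heterokaryon replicate 1. Day 3 replicate 2, which had the highest PLAT among heterokaryons, had the lowest S100A10 of the libraries that cover it and lay below both co-culture libraries. PLG, plasminogen itself and normally made by liver, was listed in no heterokaryon or co-culture library.

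**Figure D5:**
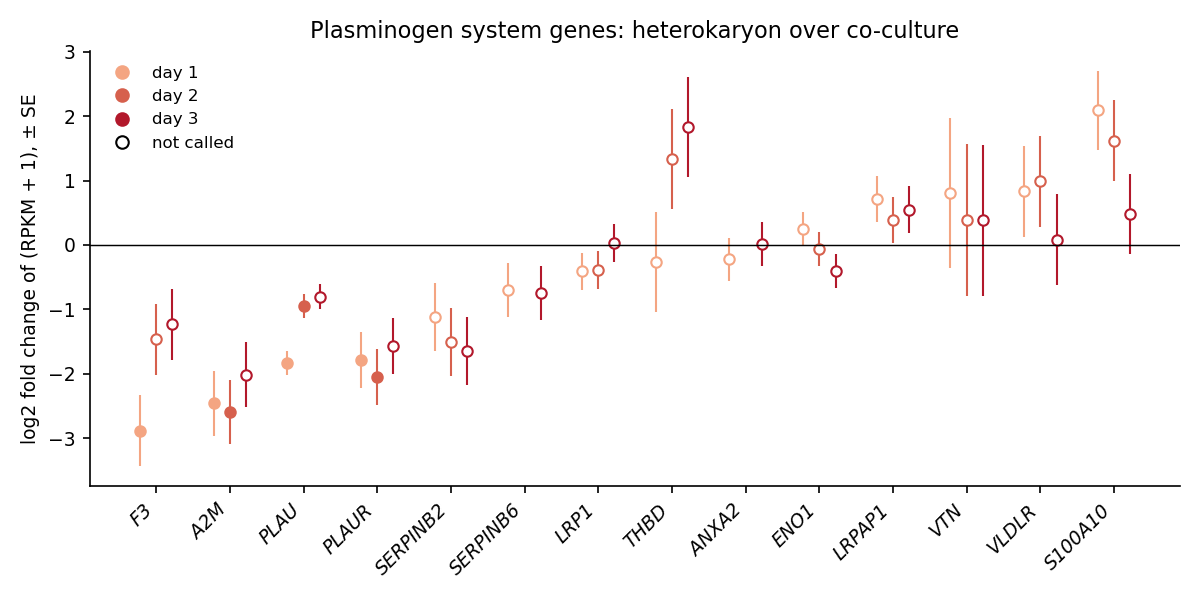
Log2 fold change of RPKM + 1 (vertical axis, with SE) of heterokaryons over co-culture on day 1, day 2 and day 3 for the tested genes of the plasminogen system; filled points passed an adjusted p of 0.05. F3, A2M, PLAU and PLAUR pass as lower on day 1.

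The list of plasmin and urokinase substrates held 21 genes. On day 1, 4 of 15 tested were lower and 1 higher, with a median of -0.30 against 0.00 for all genes, on day 2 it was 4 and 1 of 12, and on day 3 it was 2 and 1 of 13. Of all genes tested, 4.44, 3.48 and 1.15 percent were called lower on the 3 days, and 6.1, 6.6 and 2.27 percent higher. HGF, a growth factor precursor that urokinase can cut, was lower than co-culture on all 3 days (log2 differences -2.37, -2.86 and -3.13, with limma adjusted p = 0.0189, 0.00912 and 0.0135). Its mean was 31.7, 21.3 and 18.6 RPKM on the 3 days, 162 in co-culture and 22.6 in unfused fibroblasts. The HGF calls were lost without either co-culture library on every day (adjusted p 0.0526 to 0.155), and also without heterokaryon replicate 1 on day 1 (0.0679), without either heterokaryon library on day 2 (0.0688 and 0.0904) and in the fit of the 2 groups alone on day 3 (0.0577). MMP1, the collagenase whose precursor plasmin cuts, was lower on day 2 (-2.97, limma adjusted p = 0.00763) and day 3 (-3.09, limma adjusted p = 0.0122), calls that were lost without either co-culture library (0.0597 to 0.141) and, on day 2, without heterokaryon replicate 1 (0.0573). VEGFA, the angiogenic factor, was lower on day 1 (-1.81, limma adjusted p = 0.0148), which was lost without either co-culture library (0.0972 and 0.131). Mean MMP1 was 43.8 and 38.9 RPKM on day 2 and day 3, 333 in co-culture and 199 in unfused fibroblast replicate 2. Mean VEGFA was 28.1 on day 1, 102 in co-culture and 11.8 in unfused fibroblast replicate 2. CCN1, a matricellular protein, was higher than co-culture on all 3 days (1.65, 1.84 and 2.88, with limma adjusted p = 0.0353, 0.0286 and 0.0117). Its mean was 224, 255 and 574 RPKM on the 3 days, 70.7 in co-culture and 190 in unfused fibroblast replicate 2. The CCN1 calls of day 1 and day 2 were lost without any 1 library (adjusted p 0.0778 to 0.215), with no filter, without the trend and with genes covered in part (0.0575 to 0.0979), and on day 1 with quantile normalization (0.0606). The CCN1 call of day 3 was lost without either co-culture library (0.0997 and 0.127) and in the fit of the 2 groups alone (0.0577).

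Among partners of PLAUR and its protein family, the integrin gene ITGA5 was the 1 of 11 called on day 1 (-1.06, limma adjusted p = 0.0199), and ITGA5 and ITGB5 were the 2 of 11 called on day 2, both lower, with 0 of 16 in the fit that admits partly covered genes. Of all genes tested, 4.44 percent were called lower on day 1 and 3.48 percent on day 2. These integrin calls were lost without the trend (adjusted p 0.0899 to 0.116), on day 1 without either co-culture library or heterokaryon replicate 2 (0.0552 to 0.159) and on day 2 without any 1 library (0.122 to 0.224). Among clade B serpins 0 of 5 were called on day 1 and day 3, and 1 of 2 on day 2, SERPINB5, which rose to 8.47 and 9.94 RPKM, against 0 and 0.157 in co-culture (limma adjusted p = 0.0308, and 0.0665 with partly covered genes, 0.0707 with no filter and 0.120 to 0.160 without 1 library). Among transcription factors of the AP-1 and ETS families, whose sites are known in the promoters of PLAU and PLAUR, 2 of 15 were higher and 1 lower on day 1, 1 of 7 higher on day 2 and 1 of 8 higher on day 3, where 6.1, 6.6 and 2.27 percent of all genes tested were called higher. ATF3 was higher on all 3 days (2.28, 3.35 and 2.91; limma adjusted p = 0.00885, 0.00286 and 0.00826), and lost the calls of day 1 and day 3 without co-culture replicate 1 (0.0760 and 0.0961) and that of day 3 in the fit of the 2 groups alone (0.0531). Among genes of NFkB and cytokine signalling, 1 of 13 was lower on day 1, 2 of 11 were higher and 1 lower on day 2, and 1 of 13 was higher and 1 lower on day 3. On these days 4.44, 3.48 and 1.15 percent of all genes tested were called lower. LIF was lower on all 3 days (-2.54, -1.95 and -1.71; limma adjusted p = 0.00472, 0.00958 and 0.0317). The LIF calls were lost without either co-culture library on every day (adjusted p 0.0599 to 0.222), without either heterokaryon library on day 2 (0.0731 and 0.0952), and on day 3 without heterokaryon replicate 2 (0.0774), with the replicate block (0.0570), with genes covered in part (0.0622) and in the fit of the 2 groups alone (0.0723). CCL2 was higher on day 2 (3.02, limma adjusted p = 0.00577) and day 3 (2.35, limma adjusted p = 0.0265). The CCL2 calls were lost in 3 of the 4 fits that left out 1 library on each of these days (adjusted p 0.0526 to 0.182), and on day 3 with genes covered in part (0.0516) and in the fit of the 2 groups alone (0.0723).

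Markers of other cells differed in level between these groups. The summed level of 6 of 10 keratinocyte and epithelial markers, mainly KRT8 and KRT19, was 94.1 to 133 RPKM on day 1, 264 to 567 on day 2 and 347 to 592 on day 3, against 6.75 to 22.2 in co-culture. The other markers of this sum stayed low in heterokaryons, with KRT5 at most 2.07 RPKM, KRT14 3.85, EPCAM 3.33 and KRT10 5.49. KRT8 was not listed in day 2 replicate 1. Endothelial cells are a known source of PLAT, and the sum of 7 of 9 endothelial markers, mostly ENG, was 33.2 to 41.6 on day 1, 33.7 to 39.7 on day 2 and 39.6 to 58.2 on day 3, against 129 to 140 in co-culture. It was 223 in unfused fibroblast replicate 2, where PLAT was 101. Macrophages are a known source of SERPINB2, and 4 of 9 macrophage markers summed to 1.09 to 13.7 over the heterokaryon libraries, against 0.346 to 4.36 in co-culture. The defining endothelial marker PECAM1 was at most 0.480 RPKM in every heterokaryon library and was listed in neither co-culture library, and the macrophage marker CD14 was not listed in 5 of 6 heterokaryon libraries. LYZ, another macrophage marker in that sum, was 8.09 and 13.7 on day 1, 11.3 and 0 on day 2, and 0.149 and 7.66 on day 3. In co-culture LYZ was 4.36 and 0. Of 12 human pluripotency markers, the 4 covered in all 10 libraries (SOX2, LIN28B, DPPA5 and UTF1) summed to at most 1.89 RPKM in any library. PODXL, a surface sialomucin that cells other than stem cells also make, is covered on day 1, in the homokaryon and in co-culture alone. It was 137 and 151 RPKM on day 1, against 7.39 and 11.0 in co-culture, with 1.68 in the homokaryon library. SFN, an epithelial marker outside the sum above, was 82.3 RPKM in day 1 replicate 2, against 3.22 in co-culture replicate 2, the 2 libraries that cover it. The part of these markers in the results was not tested.

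The genes whose pattern over 10 libraries was most like each member were found among 1058 genes with a mean of 10 RPKM or more, as a description with no test, since libraries of a group share their condition and may share their cells. For PLAU they were AMPD3 (Pearson r 0.918), VEGFA (0.860) and GJA1 (0.856), and the most opposite were SNRNP70, H2AZ1 and SELENOW (-0.874 to -0.859). For PLAT they were NPTX1 (0.875), HGF (0.861) and STC1 (0.848), against GGCX (-0.934). For PLAUR they were GARS1 (0.926), MGAT5 (0.920) and SEMA7A (0.898), against ADAM17 (-0.937). For SERPINB2 they were PFKP (0.958), NT5E (0.952) and SLC7A5 (0.903), against C1R (-0.938). Without the homokaryon library, where SERPINB2 was taken as 0, the r of SERPINB2 was 0.887 with PFKP and 0.665 with SLC7A5. Between members, r was 0.718 for PLAU and PLAT and 0.311 for PLAU and PLAUR.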

How the data were processed

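PolyA RNA-seq tables of 12 libraries were read and 11 used, with 1 value per RefSeq transcript. The deposited values have the form of RPKM, which FPKM and TPM share; the unit is inferred from the values. Per the submitters' processing notes the genome builds were hg19 and mm10. For the aligner, nothing was given in the sources used here. Each of the 11 tables used holds 10000 distinct values and no 0. In the mixed table of unfused fibroblast replicate 1, values with more than 2 decimals were taken as human, as were the largest values, printed with fewer decimals, of human accessions. Depth is unknown, so no counting interval is given. Coding transcripts were summed per gene; 217 genes next to unnamed accessions were set aside. Mouse transcripts, and promoter sequences, were not analysed here.

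Replicated groups (10 libraries) entered limma 3.58.1, run in R 4.3.3 (lmFit, then eBayes with the trend option), as log2(value + 1), keeping genes that reached 1 in 2 or more libraries, with Benjamini-Hochberg adjustment over all genes tested and calls under 0.05. "Covered in part" means a gene summed over the transcripts that every compared library covers. The fit was tested on simulated data. Named genes were the members, tested plasminogen system genes, up to 5 called genes per list and day against co-culture, and the 3 most and least alike genes; not all were printed, and 1 gene of the plasminogen system list is not reported here. Members and lists were chosen with earlier results of these data known. The rules on coverage and the fits with fibroblast replicate 2 alone were added after seeing the tables. Alternatives changed the pseudocount, filter, scaling, trend, groups fitted, block and libraries.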

Additional observations from a re-analysis of the deposited data

Results flagged for a closer look

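IGFBP3, a binding protein of insulin-like growth factors that plasmin can cut, is given because its difference from co-culture changed between days. Besides the members, no other gene was put to this check. Between day 3 and day 1, 1.15 percent of 3031 genes tested were called in either direction, and IGFBP3 was the 1 called of 13 substrate genes tested. IGFBP3 was 61.1 and 130 RPKM at day 3, against 8.91 and 18.2 at day 1, with 60.7 and 38.0 in co-culture. The difference of day 3 and day 1 was 2.71 on the log2 scale (limma adjusted p = 0.0485), higher in both day 3 libraries than in both day 1 libraries. It did not pass when any 1 library was left out (adjusted p 0.0525 to 0.119). It also did not pass with a pseudocount of 0.1, with no filter, with quantile normalization, without the trend, with the replicate block, with genes covered in part or in the fit of the 2 groups alone (adjusted p 0.0591 to 0.295).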

How the results depend on the processing

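Of the alternatives other than leaving out a library, 632 of the values of single genes kept their direction and their side of the threshold, 81 lost a call, 8 gained one and 3 changed sign. Leaving out 1 library at a time kept 144, ended the call of 132, added a call for 5 and changed the sign of 11, and 1 library of a pair is then assumed to vary like the other groups. Between heterokaryon days, upper quartile scaling turned SERPINB2 of day 3 against day 2 to 0.053, and quantile normalization turned it to 0.13 and PLAT of day 3 against day 1 to 0.011. Leaving out 1 library gave -0.78 to 0.24 for PLAUR of day 2 against day 1, -0.29 to 0.73 for PLAUR of day 3 against day 1 and -0.0069 to 0.98 for PLAUR of day 3 against day 2. It gave -1.25 to 0.89 for PLAT of day 3 against day 1, -0.78 to 1.36 for PLAT of day 3 against day 2, -1.30 to 0.24 for SERPINB2 of day 3 against day 1 and -0.91 to 0.63 for SERPINB2 of day 3 against day 2. PLAT of day 3 against unfused fibroblasts ran from -0.022 to 2.12, and S100A10 of day 3 against co-culture from -0.61 to 1.56. The causes were not tested.

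Against co-culture, the count of genes called was 380 on day 1 (235 with no filter on low values, 213 in the fit of the 2 groups alone, 41 to 330 leaving out 1 library), 249 on day 2 (516 with 2 groups, 26 to 39) and 104 on day 3 (12 with 2 groups, 5 to 160). Co-culture against unfused fibroblasts called 2, with 10 at a pseudocount of 0.1 and with no filter, 13 with a filter of 5, 1 at a pseudocount of 5 and under either scaling, 77 with 2 groups, 22 with genes covered in part and 1 to 11 leaving out 1 library. Against unfused fibroblasts the counts were 148 on day 1 (240 with genes covered in part, 34 to 137), 119 on day 2 (277 with 2 groups, 39 to 75) and 73 on day 3 (24 to 100). Day 2 against day 1 called 7, with 0 at a pseudocount of 0.1, a filter of 5, quantile normalization and 2 groups, 20 with no filter and with genes covered in part, and 0 to 5 leaving out 1 library. Day 3 against day 2 called 0, with 9, 13 and 0 to 17 under the last 3 of these. Day 3 against day 1 called 35, with 9 at a pseudocount of 0.1 and with no filter, 8 with quantile normalization, 0 with 2 groups, 18 without the trend and 0 to 48. The split of calls into higher and lower was 163 and 86 on day 2 against co-culture, 125 and 126 with upper quartile scaling and 114 and 118 with quantile normalization. Quantile normalization also moved it to 61 and 52 against 69 and 35 for day 3 and co-culture. For unfused fibroblasts it gave 62 and 80 against 86 and 62 on day 1, 65 and 56 against 93 and 26 on day 2, where upper quartile scaling gave 73 and 45, and 42 and 33 against 56 and 17 on day 3. The homokaryon ratios to unfused fibroblasts became 1.32 for PLAU, 0.160 for PLAUR and 2.27 for PLAT with upper quartile scaling.

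The replicate numbers are only numbers in the labels, and same-numbered libraries did not deviate together (r -0.114 to 0.0847). With the replicate block, calls were 293, 190 and 51 against co-culture on the 3 days, 3 for co-culture against unfused fibroblasts, 126, 112 and 59 for heterokaryons against unfused fibroblasts, and 0 in all 3 comparisons of days; pairing day 2 and day 3 the other way round also called 0. Depth is unknown, so how it limits SERPINB2, the member of lowest level, could not be computed.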
